A study of Mus musculus with 4 samples.

Results

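The 10 genes described here encode the core of transforming growth factor beta (TGF-beta) signalling: the ligands Tgfb1, Tgfb2 and Tgfb3, the receptors Tgfbr1 and Tgfbr2, the co-receptors Tgfbr3 (betaglycan) and Eng (endoglin), and the signal transducers Smad3, Smad4 and Smad7. They were chosen by gene name, with every gene probe that carries the name, from the 27670 gene names on the array. All 10 passed the filter on dim probes, among 20513 genes tested, and 16 of 41174 gene probes carry their names. The cells were 4TO7, a tumour line of the mammary gland from BALB/cfC3H mice. The control line stably carried the retroviral vector pMSCV-puro, and the other line stably carried pMSCV with the microRNA cluster miR-23b/27b/24. There were 2 arrays for each line, described by the submitters as replicates of transfection. That description does not settle whether the arrays of a line read a single stable line or separately derived cells. Whether a line is a clone or a pool is not stated in the labels. The p-values measure only the spread between these arrays, which may be technical. On every array the Cy5 channel held RNA of the 4TO7 cells and the Cy3 channel Universal Mouse Reference RNA, pooled from 11 mouse cell lines. Without a dye swap, a level against the reference may hold a dye effect. The array does not measure mature microRNAs, so the level of the cluster was not checked.

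TGF-beta ligands are secreted in a latent form that must be released before it can bind. The active ligand brings together the type II receptor Tgfbr2 and the type I receptor Tgfbr1, both of which are kinases. Tgfbr3 presents ligand to them and is known to be needed most for TGF-beta 2, while Eng is an accessory receptor best known from endothelial cells. The type I receptor phosphorylates Smad2 and Smad3, which join Smad4 and enter the nucleus. Smad7 is induced by the pathway and blocks the receptor in turn. In mammary tumour cells the pathway is known both for growth arrest and for driving a mesenchymal change.

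Mature sequences of microRNAs in the expressed cluster are shown first, since they define the manipulation. They come from RefSeq (GRCm38.p6), and capitals mark the seed, bases 2 to 8. These sequences have different seeds. The third mature product of the cluster is miR-23b-3p.
mmu-miR-27b-3p: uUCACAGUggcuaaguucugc
mmu-miR-24-3p: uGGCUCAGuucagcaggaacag
The mature miR-27b-3p lies at chr13:63300760-63300780 and miR-24-3p at chr13:63301251-63301272, both on the plus strand. Their seed matches, ACTGTGA and CTGAGCC, occurred in 0 of the 16 member probes, against 0.826% and 0.42% of the 41174 gene probes. Each probe covers only a short stretch of its transcript, and transcripts outside the probes were not searched.

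Of the 10 genes, 3 fell in the miR-23b/27b/24 cells and 0 rose (limma, adjusted p under 0.05). They were Eng, Tgfbr2 and Tgfb2. Over all genes tested, 9.43% passed, 4.78% higher and 4.66% lower. At an unadjusted p under 0.05, 4 of the 10 genes were lower and 0 higher, while 27.7% of all genes passed that level, 13.1% lower and 14.6% higher. The 2 arrays of one line lay wholly to one side of the other 2 for 7 of the 10 genes, 5 lower and 2 higher. Among all genes this held for 59.8%, made up of 32.3% lower and 27.4% higher. The median log2 fold change was -0.14 over the 10 genes and -0.03 over all genes. Without vector replicate 1 the count was 5, Tgfb1 (higher) and Tgfbr3 (lower) being added, and without either miR-23b/27b/24 array only Eng passed.

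**Figure D1:**
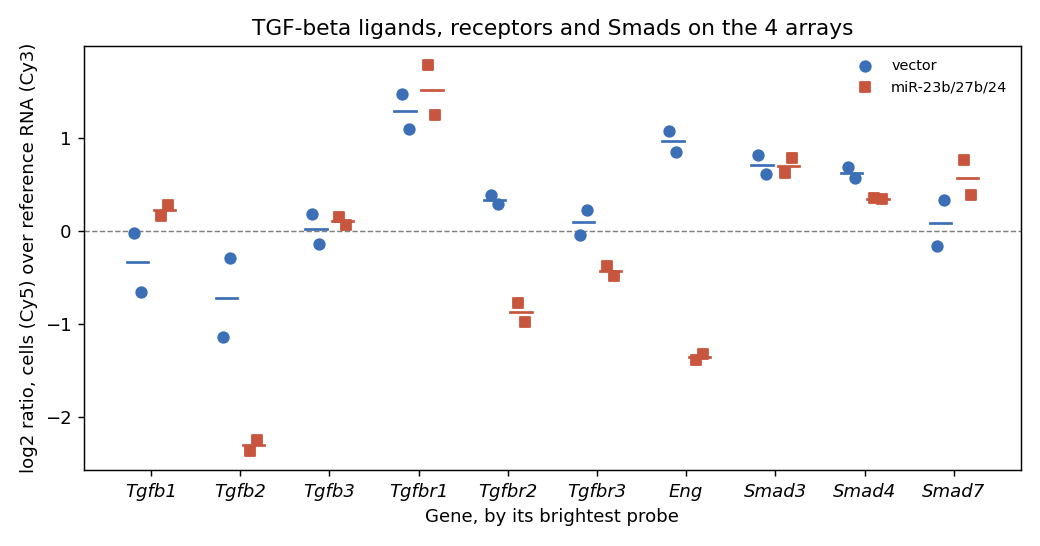
Log2 ratio of cells (Cy5) over reference RNA (Cy3) for each of the 10 genes by its brightest probe. Circles are the 2 vector arrays, squares the 2 miR-23b/27b/24 arrays and short bars the group means. Eng stood at 1.07 and 0.85 in vector cells and at -1.39 and -1.32 in miR-23b/27b/24 cells, and the arrays of Tgfb3, Tgfbr1 and Smad3 overlapped.

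Among the ligands, Tgfb2 fell. Its log2 ratio to the reference was -1.14 and -0.29 on the vector arrays and -2.36 and -2.25 on the miR-23b/27b/24 arrays. Both arrays with the cluster lay below both vector arrays, and the vector arrays themselves were 0.856 apart, with replicate 1 the lower. The fitted difference in log2 was -1.59 ± 0.30 (SE, 2 arrays a line, 95% interval -2.37 to -0.81, adjusted p in limma = 0.0433), a 3.01-fold difference. The same order showed in the Cy5 intensity after background and dye correction by the scanner software. It was 840 and 1916 in vector cells and 299 and 324 in miR-23b/27b/24 cells, while the Cy3 intensity of the reference stayed between 1710 and 2170. The log2 fold change of Tgfb2 was -2.02 without vector replicate 1 and -1.16 without vector replicate 2. It missed the threshold with median centring in place of loess (-1.52, adjusted p = 0.0598) and when an array with the cluster was left out (adjusted p = 0.237 for replicate 1 and 0.173 for replicate 2). The probe lies on chromosome 1 from 186149057 to 186149116, on the minus strand, in the mm7 coordinates of the files.

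Tgfb1, the most widely made of the ligands, had log2 ratios of -0.02 and -0.65 in vector cells and of 0.16 and 0.28 in miR-23b/27b/24 cells. Both arrays with the cluster lay above both vector arrays, but the vector arrays were 0.628 apart. The log2 fold change of 0.56 ± 0.24 (SE, 2 arrays a line, 95% interval -0.05 to 1.17) did not pass (adjusted p in limma = 0.214). This probe is printed 10 times on each array, and 9 or 10 of its spots were usable. The SD over spots lay between 0.0309 and 0.0536 on the 4 arrays. The gap between the vector arrays was therefore larger than the spread between spots of an array. The highest spot of vector replicate 2 was at -0.552 and the lowest spot of vector replicate 1 at -0.0932. Without vector replicate 1, Tgfb1 passed with a log2 fold change of 0.872 (adjusted p = 0.0173), and without vector replicate 2 it was 0.244 (adjusted p = 0.338). Those values depend on which vector array is kept.

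Tgfb3 had log2 ratios of 0.18 and -0.14 in vector cells and of 0.15 and 0.07 in miR-23b/27b/24 cells, so both arrays with the cluster lay between the vector arrays. The difference was 0.09 ± 0.16 (SE, 2 arrays a line, adjusted p in limma = 0.777). The 95% interval, from -0.32 to 0.49, includes changes of either sign. Its Cy5 intensity was between 4658 and 5591 on all arrays, far from the detection limit.

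The receptors split. Tgfbr2, the receptor that binds ligand first, fell. Its brightest probe gave log2 ratios of 0.38 and 0.28 in vector cells and of -0.77 and -0.98 in miR-23b/27b/24 cells. The arrays of each group were close together and the groups did not overlap. Tgfbr2 thus had a log2 fold change of -1.21 ± 0.14 (SE, 2 arrays a line, 95% interval -1.57 to -0.85, adjusted p in limma = 0.0145), a 2.31-fold difference. Cy5 intensity was 13970 and 14320 in vector cells and 6372 and 5153 in miR-23b/27b/24 cells, at a reference intensity between 9980 and 11500. The adjusted p was 0.0935 without miR-23b/27b/24 replicate 1 and 0.111 without replicate 2, with log2 fold changes of -1.31 and -1.11. This probe lies on chromosome 9 from 115760364 to 115760423, on the minus strand (mm7).

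Tgfbr2 has 2 further probes, and whether any of its probes reads 1 transcript variant alone was not tested. The second probe, annotated to another RefSeq transcript than the brightest, was dim. Its Cy5 intensities were 137 and 139 in vector cells and 64.6 and 69.0 in miR-23b/27b/24 cells. Its log2 ratios were 0.38 and 0.20 in vector cells and -0.11 and -0.14 in miR-23b/27b/24 cells, again without overlap. In a fit over all 30075 probes, of which 9.88% passed, it differed by -0.42 ± 0.13 (SE, 2 arrays a line) and did not pass (adjusted p in limma = 0.119). An offset of 50 added to every signal draws the ratios of dim probes toward 0. With the signals of the scanner software, which carry no offset, the second probe differed by -0.83 and the brightest probe by -1.24. The third probe, drawn from a cDNA clone, was not well above background in Cy5 on any array. The mean of the tested probes gave a Tgfbr2 log2 fold change of -0.812 (adjusted p = 0.0268).

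Tgfbr1, the type I receptor, stood above the reference on every array. Its log2 ratios were 1.47 and 1.09 in vector cells and 1.78 and 1.24 in miR-23b/27b/24 cells, and the groups overlapped. Tgfbr1 differed by 0.23 ± 0.24 (SE, 2 arrays a line, 95% interval -0.40 to 0.85, adjusted p in limma = 0.604). Its other probe, much dimmer, differed by 0.20 ± 0.12 (SE, adjusted p = 0.342 over all probes). A probe outside the 10 genes was looked at after its values were seen. The files describe it as a transcript cluster that resembles part of the type I receptor protein, and give it no gene name. Its log2 ratios were -1.39 and -1.68 in vector cells and 0.15 and -0.22 in miR-23b/27b/24 cells, a difference of 1.5 ± 0.19 (SE, 2 arrays a line, adjusted p in limma = 0.0171 over all probes). Neither named Tgfbr1 probe showed a difference of that size, and whether this probe reads Tgfbr1 was not tested. A probe for a further type II receptor isoform, also without a member's name, was not well above background in Cy5 on any array.

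Eng had the largest change of the 10 genes. Its log2 ratios were 1.07 and 0.85 in vector cells and -1.39 and -1.32 in miR-23b/27b/24 cells. Vector cells thus stood above the reference and cells with the cluster below it, with little spread inside either group. Eng had a log2 fold change of -2.31 ± 0.14 (SE, 2 arrays a line, 95% interval -2.67 to -1.96, adjusted p in limma = 0.00354), a 4.97-fold difference, and its p-value was among the lowest 0.487% of all genes tested. The Cy5 intensity was 1401 and 1510 in vector cells and 153 and 176 in miR-23b/27b/24 cells, at a reference intensity between 529 and 674. Eng passed in all 16 alternative settings, at values from -3.02 (the scanner software's signals with loess) to -1.98 (every local background as measured). The probe lies on chromosome 2 from 32689101 to 32689160, on the plus strand (mm7).

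Tgfbr3, the other co-receptor, had log2 ratios of -0.04 and 0.22 in vector cells and of -0.38 and -0.48 in miR-23b/27b/24 cells. The groups did not overlap. Its log2 fold change of -0.52 ± 0.15 (SE, 2 arrays a line, 95% interval -0.90 to -0.14) missed the threshold (adjusted p in limma = 0.0975). This probe is dim, with Cy5 intensities of 184 and 299 in vector cells and of 129 and 128 in miR-23b/27b/24 cells. Without the offset, the scanner software's signals gave -0.821 (adjusted p = 0.0731). Leaving out vector replicate 1 gave -0.653 with an adjusted p of 0.034, and leaving out vector replicate 2 gave -0.389 with an adjusted p of 0.147.

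**Figure D2:**
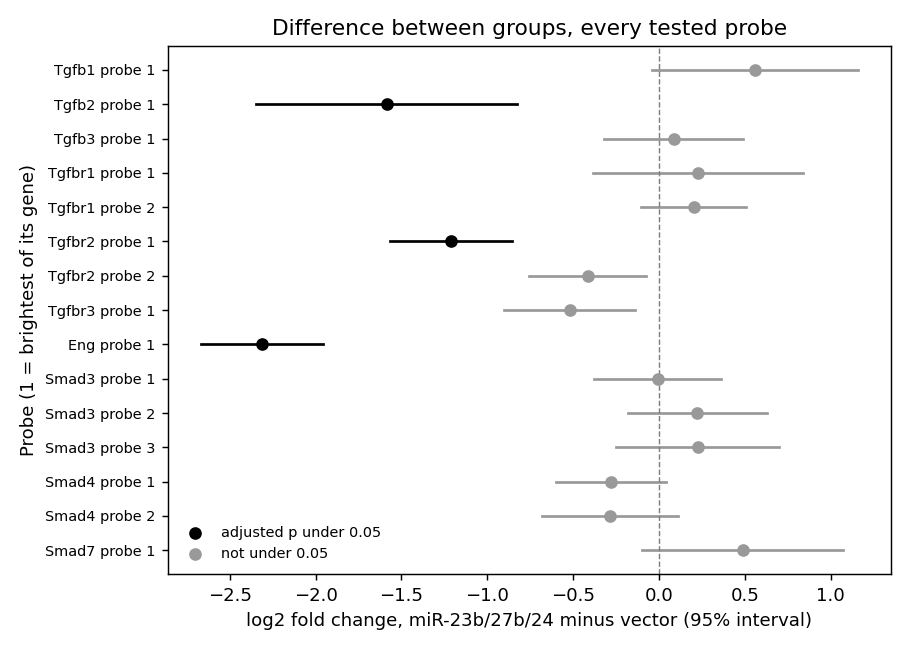
Log2 fold change, miR-23b/27b/24 minus vector, with its 95% interval for each of the 15 probes tested, from the fit over all probes. Black marks an adjusted p under 0.05. The probe of Eng and the brightest probes of Tgfbr2 and Tgfb2 lie left of 0, and the probes of Smad3 all have intervals that include 0.

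None of the 3 Smad genes passed the test in limma, and 0 of them had an unadjusted p under 0.05. Smad3, which carries the signal from the type I receptor, had log2 ratios of 0.81 and 0.61 in vector cells and of 0.62 and 0.78 in miR-23b/27b/24 cells. The groups overlapped fully. Its log2 fold change was -0.01 ± 0.14 (SE, 2 arrays a line, 95% interval -0.38 to 0.36, adjusted p in limma = 0.979). Its other 2 probes gave 0.22 ± 0.16 and 0.23 ± 0.19 (SE), with adjusted p-values of 0.423 and 0.493 over all probes. The sign of Smad3 was turned by 6 of the 16 alternative settings, at values between 0.018 and 0.146.

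Smad4, the partner shared by all receptor-activated Smads, had log2 ratios of 0.68 and 0.56 in vector cells and of 0.35 and 0.34 in miR-23b/27b/24 cells. Both arrays with the cluster lay lower. The difference was small, -0.28 ± 0.12 (SE, 2 arrays a line, adjusted p in limma = 0.227), and the interval ran from -0.59 to 0.04. The other Smad4 probe gave -0.29 ± 0.15 (SE, adjusted p = 0.297 over all probes), with the same sign.

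Smad7, the inhibitory Smad, had log2 ratios of -0.16 and 0.33 in vector cells and of 0.76 and 0.39 in miR-23b/27b/24 cells. The groups did not overlap, but the upper vector array and the lower array with the cluster were close. Smad7 differed by 0.49 ± 0.23 (SE, 2 arrays a line, 95% interval -0.11 to 1.08, adjusted p in limma = 0.255). Cy5 intensity was 3249 and 5371 in vector cells and 6764 and 4706 in miR-23b/27b/24 cells.

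The other genes of the pathway were taken from 7 lists drawn up from general knowledge, with 91 genes in all, of which 88 were measured. Of these, 6 rose and 10 fell in limma, or 18.2%, against 9.43% of all genes. The median log2 fold change was -0.05. The count was 5 with every local background as measured, 10 with median centring, 27 when vector replicate 1 was left out and 21 when vector replicate 2 was. Only 2 passed when miR-23b/27b/24 replicate 1 was left out, and 1 when replicate 2 was. The 15 genes among them that are named below each missed the threshold in at least 1 of the 12 alternatives that kept every array. With every local background as measured, Skil, Smad1, Ski, Usp11, Map2k6, Map2k3, Tab3, Ccn2, Bhlhe40, Cdh1 and Myc missed the threshold, at adjusted p-values from 0.0524 (Usp11) to 0.138 (Cdh1). With median centring, Thbs1, Tgif2, Ski, Ccn2, Bhlhe40 and Acta2 missed it, at 0.0573 (Thbs1) to 0.0856 (Bhlhe40).

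Among 15 measured genes that hold TGF-beta latent or release it, 2 fell and 0 rose in limma, or 13.3% against 9.43% of all genes. At an unadjusted p under 0.05, 6 were lower and 2 higher, against 13.1% and 14.6% of all genes. Thbs1, a matrix protein known to activate latent TGF-beta, had log2 ratios of 1.56 and 1.03 in vector cells and of -0.51 and -0.16 in miR-23b/27b/24 cells. Its log2 fold change was -1.63 ± 0.23 (SE, 2 arrays a line, adjusted p in limma = 0.0241), its other probes gave -0.87 and -0.59, and the mean of its probes -1.03 (adjusted p = 0.0558). Itgb6, the beta chain of an epithelial integrin that activates latent TGF-beta, differed by -1.29 ± 0.14 (SE, adjusted p in limma = 0.0135). Its other probes gave -0.44 and 0.23, and the mean of its probes -0.498 (adjusted p = 0.0699), so the call of Itgb6 rests on its brightest probe. The scanner software's signals with loess, which carry no offset, gave -2.3 for that probe (adjusted p = 0.00681). Ltbp1, which anchors the latent complex in the matrix, had a log2 fold change of -0.83 that did not pass (adjusted p in limma = 0.0583). Itgb8, of the same list, went the other way at 0.58 and did not pass either (adjusted p in limma = 0.0555). Its probe was well above background in Cy5 on only 2 arrays.

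Related receptors showed 0 calls among 12 measured genes in limma, with 4 higher and 0 lower at an unadjusted p under 0.05. That level was passed by 27.7% of all genes in either direction and by 14.6% as higher. The smallest p-value was that of Acvr1, a type I receptor of the wider family, with a log2 fold change of 0.56 ± 0.13 (SE, 2 arrays a line, adjusted p in limma = 0.0612). Their median log2 fold change was 0.20. Of 15 other Smads and their partners, 2 rose and 2 fell, or 26.7% against 9.43% of all genes. Smad1, which carries signals of the related BMP ligands, fell by 1.03 ± 0.16 (SE, log2, adjusted p in limma = 0.0268), and its other probe gave -0.84. Smad2, the partner of Smad3, differed by 0.08 (adjusted p in limma = 0.823). Skil and Ski are related co-repressors that bind Smad proteins. Skil had log2 ratios of 1.10 and 1.28 in vector cells and of -0.40 and 0.02 in miR-23b/27b/24 cells. Its log2 fold change was -1.38 ± 0.19 (SE, adjusted p in limma = 0.0212), with -0.34 for its other probe. Ski differed by 0.84 ± 0.15 (SE, adjusted p in limma = 0.0387). Its other probes gave 0.385 and 0.574, and the mean of its probes 0.601 (adjusted p = 0.0485). Ski missed the threshold in 6 of the 12 alternatives that kept every array, the replicate block among them (adjusted p = 0.0565). Tgif2, a further co-repressor of the pathway, differed by 0.98 ± 0.14 (SE, adjusted p in limma = 0.0238), and its adjusted p was 0.064 with trended and robust moderation.

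Of 13 genes that control the turnover of receptors and Smads, 1 fell and 0 rose in limma, or 7.69% against 9.43% of all genes. At an unadjusted p under 0.05, 3 were lower and 1 higher, against 13.1% and 14.6% of all genes. The gene that fell was Usp11, a deubiquitinase, with a log2 fold change of -1.23 ± 0.14 (SE, 2 arrays a line, adjusted p in limma = 0.0145). Smurf2, a ubiquitin ligase that acts with Smad7 on the receptor, differed by -0.70 and did not pass (adjusted p in limma = 0.0567). Itch, of the same list, differed by 0.65 and did not pass either (adjusted p in limma = 0.0716). The kinase branch list mostly holds genes of the route from the receptor through the kinase TAK1 to p38. It had 2 rises and 1 fall among 10 genes. That is 30%, against 9.43% of all genes. Map2k6, a kinase that activates p38, had log2 ratios of -1.33 and -1.32 in vector cells and of 0.37 and 1.12 in miR-23b/27b/24 cells. Its log2 fold change was 2.07 ± 0.27 (SE, adjusted p in limma = 0.0192), but its other probes gave 1.03 and -0.02, and it was 1.43 (adjusted p = 0.124) with every local background as measured. Map2k3, which also activates p38, differed by 1.09 ± 0.14 (SE, adjusted p in limma = 0.0204). Tab3, an adaptor of TAK1, fell by 1.06 ± 0.17 (SE, log2, adjusted p in limma = 0.030).

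**Figure D3:**
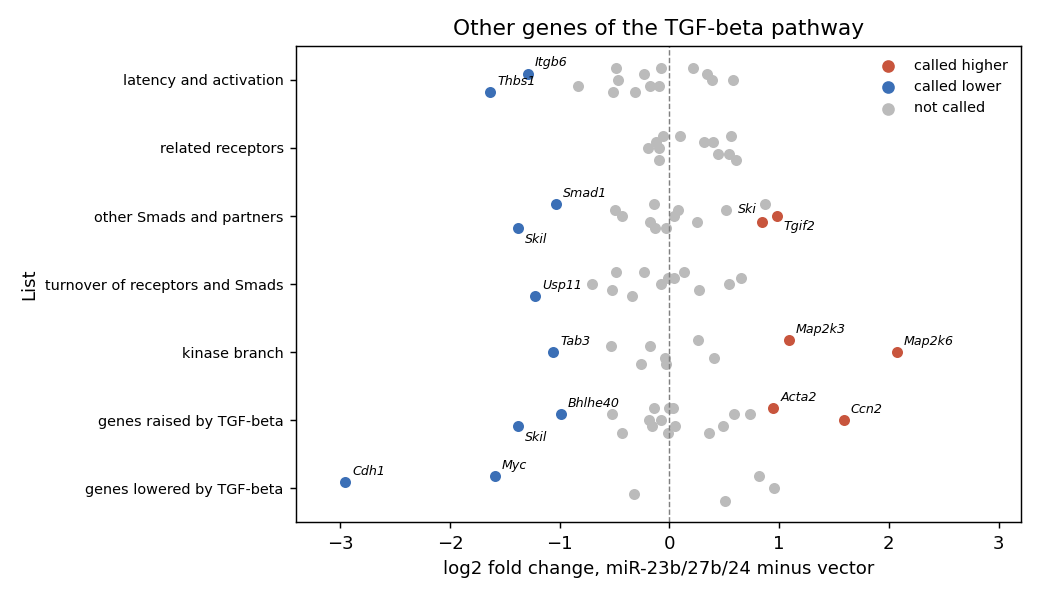
Log2 fold change, miR-23b/27b/24 minus vector, of each measured gene in 7 lists of the TGF-beta pathway, each point a gene by its brightest probe. Coloured points passed an adjusted p of 0.05 and carry names, and Skil belongs to 2 lists. In the list of genes raised by TGF-beta, Ccn2 lies at 1.59 and Skil at -1.38, and 1 called gene of that list is not shown.

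Genes known to be raised by TGF-beta went both ways. Of 19 measured, 2 rose and 3 fell, or 26.3% against 9.43% of all genes, with a median log2 fold change of -0.02. Ccn2, connective tissue growth factor, had log2 ratios of -0.85 and -1.02 in vector cells and of 0.32 and 0.99 in miR-23b/27b/24 cells, a log2 fold change of 1.59 ± 0.25 (SE, adjusted p in limma = 0.0301). Skil and Bhlhe40 passed as lower, and Acta2 as higher. Bhlhe40, a transcription factor, had a log2 fold change of -0.99 (adjusted p in limma = 0.0329). Acta2, smooth muscle actin, is named after its values were seen. It had 0.95 (adjusted p in limma = 0.0205) and 0.155 (adjusted p = 0.461) with the mean of its probes. Snai1 and Snai2, transcription factors of the mesenchymal change, had log2 fold changes of 0.36 and -0.14 and did not pass (adjusted p in limma = 0.361 and 0.685).

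Of 6 genes known to be lowered by TGF-beta, 2 fell and 0 rose in limma, or 33.3% against 9.43% of all genes. At an unadjusted p under 0.05, 2 were lower and 2 higher, against 13.1% and 14.6% of all genes. Cdh1, the epithelial cadherin, had log2 ratios of 5.19 and 5.36 in vector cells and of 1.63 and 3.02 in miR-23b/27b/24 cells. Its log2 fold change was -2.95 ± 0.47 (SE, 2 arrays a line, adjusted p in limma = 0.0299), and -2.17 (adjusted p = 0.138) with every local background as measured. The scanner software's signals with loess gave Cdh1 -2.17 (adjusted p = 0.0519) and its log ratio -2.06 (adjusted p = 0.061). It was -4.52 (adjusted p = 0.0115) from Cy5 alone, and between -3.65 and -2.26 with 1 array left out, both ends from leaving out an array with the cluster. Myc, a growth-promoting transcription factor, differed by -1.59 ± 0.29 (SE, adjusted p in limma = 0.0405), with -1.51 and -0.998 for its other probes and -1.37 (adjusted p = 0.0554) for the mean of its probes. The other genes of the list did not pass. Id1, Cdc25a and Id3 had log2 fold changes of 0.95, 0.82 and 0.51 (adjusted p in limma = 0.257, 0.113 and 0.0672). Id2 had -0.32 (adjusted p in limma = 0.591). The median over the list was 0.09. When miR-23b/27b/24 replicate 1 was left out, Cdh1 and Map2k6 were the pathway genes still called, and when replicate 2 was left out, Cdh1.

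Markers of cell types were read beside these values. All 7 epithelial markers were well above background in Cy5 on all 4 arrays. Of them 4 fell (Krt7, Krt14, Epcam and Cdh1), or 57.1% against 9.43% of all genes. The summed Cy5 intensity of the 7 markers was 579000 and 489000 in vector cells and 204000 and 228000 in miR-23b/27b/24 cells. Mesenchymal markers were also well above background, 7 of 7, with 0 called in limma against 9.43% of all genes. At an unadjusted p under 0.05, 2 were higher and 0 lower, against 14.6% and 13.1% of all genes. The 2 were Pdgfra, with a log2 fold change of 1.23 (adjusted p in limma = 0.101), and Dcn, with 0.39 (adjusted p in limma = 0.152). The sums of the 7 mesenchymal markers, from 162000 to 259000, overlapped between groups. Most of each sum came from Vim (135000 to 239000), while Lum lay between 81.6 and 123. Of 7 endothelial markers, which bear on Eng, 3 were well above background on all arrays, and 0 of the 4 tested were called (0 at an unadjusted p under 0.05). Their sum was 786 and 682 in vector cells and 533 and 560 in miR-23b/27b/24 cells, with Pecam1 between 36 and 55.7, Cdh5 between 9.8 and 39.5, and Tie1 at 249 on vector replicate 1 and at most 21.8 elsewhere. The 3 well above background were Kdr (92.3 to 112), Tek (130 to 157) and Vwf (174 to 274). Their log2 fold changes were -0.02, -0.11 and -0.17. Of 6 blood and immune markers 5 were well above background on all arrays. Among the 5 tested 1 fell (Cd68), or 20% against 9.43% of all genes. The sums of the 6 were 5040 and 5030 in vector cells and 2440 and 2250 in miR-23b/27b/24 cells, mostly from Cd68. Itgam was not well above background on any array. The part of any of these cell types in the differences was not tested. In bulk RNA, fewer cells of a type and less RNA per cell cannot be told apart.

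The genes nearest to Eng in pattern were found by the distance between log2 ratios over the 4 arrays, each gene centred on its own mean, among 14484 named genes well above background on all arrays. They were Tjp3, Rundc3b, Elovl7, Rpl22l1 and Serpinb6b, at distances of 0.11 to 0.17. Their log2 fold changes lay between -2.45 and -2.18. With 4 arrays in 2 groups, this likeness rests almost wholly on the size of the difference between groups.

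The upstream promoter sequences of the 3 genes that fell are shown because these genes moved in the same direction. Each is the 250 bases before the RefSeq start (GRCm38.p6), read 5′ to 3′ on the strand of the gene. Capitals mark CAGAC or its reverse complement, a short element to which Smad proteins are known to bind.
Tgfb2, chr1:186705990-186706239, minus strand: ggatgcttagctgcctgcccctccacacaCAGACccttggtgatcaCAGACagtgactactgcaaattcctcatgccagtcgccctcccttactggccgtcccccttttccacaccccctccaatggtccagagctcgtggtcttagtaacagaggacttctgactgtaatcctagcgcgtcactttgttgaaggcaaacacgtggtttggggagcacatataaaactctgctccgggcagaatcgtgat
Tgfbr2, chr9:116175364-116175613, minus strand: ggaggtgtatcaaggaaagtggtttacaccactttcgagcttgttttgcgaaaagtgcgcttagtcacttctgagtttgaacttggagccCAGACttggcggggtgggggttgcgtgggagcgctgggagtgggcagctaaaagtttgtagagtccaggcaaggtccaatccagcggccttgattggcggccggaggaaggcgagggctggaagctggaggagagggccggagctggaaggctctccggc
Eng, chr2:32646345-32646594, plus strand: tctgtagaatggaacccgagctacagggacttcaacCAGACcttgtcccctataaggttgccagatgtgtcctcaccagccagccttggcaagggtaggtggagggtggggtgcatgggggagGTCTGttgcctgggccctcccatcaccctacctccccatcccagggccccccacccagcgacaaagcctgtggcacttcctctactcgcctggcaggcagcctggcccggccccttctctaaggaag
On either strand, CAGAC occurred 2 times in the window of Tgfb2, 1 time in that of Tgfbr2 and 2 times in that of Eng. It occurred 0 times in the windows of Tgfb1 and Smad3, and 0 and 1 times in the 2 windows of Tgfbr1. Of all 32851 promoter windows of this length 42.2% hold it. The GC box GGGCGG, present in 32.7% of windows, occurred in none of these 3 windows. It occurred 5 times in that of Tgfb1, 2 times in that of Smad3 and 2 times in the first of the 2 windows of Tgfbr1. The TATA box TATAAA, in 12.4% of windows, occurred 1 time in that of Tgfb2. The palindrome GTCTAGAC, in 0.167% of windows, and the AP-1 element TGAGTCA, in 4.46%, occurred in none of the windows of Tgfb1, Tgfb2, Tgfbr1, Tgfbr2, Eng and Smad3. Windows of Tgfb3, Tgfbr3, Smad4 and Smad7 are not described here, so these counts do not compare the genes that fell with all the others. A match is a description of these letters alone.

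**Figure D4:**
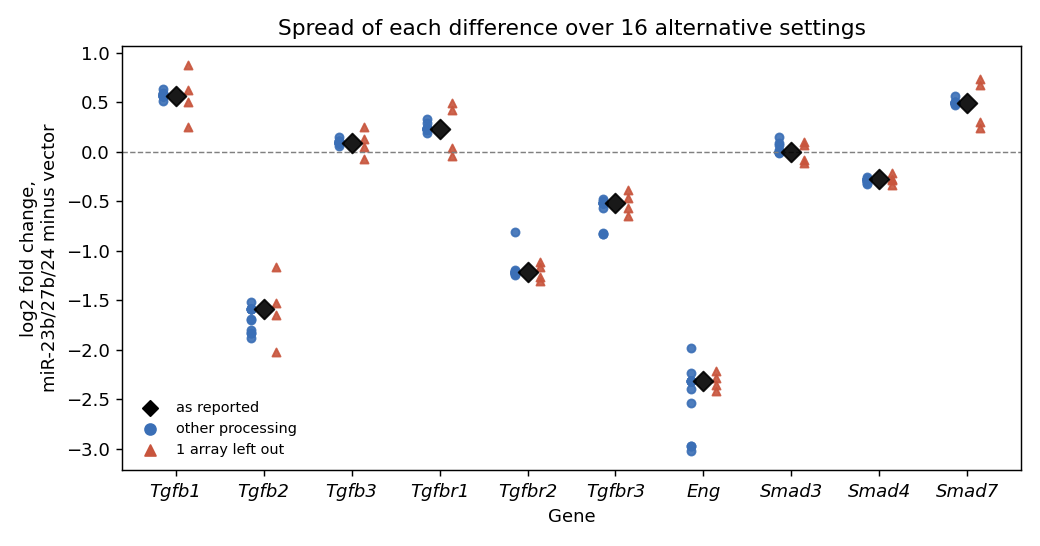
Log2 fold change, miR-23b/27b/24 minus vector, of each gene as reported (diamond), under 12 other ways of processing (circles) and with 1 array left out (triangles). Eng, Tgfbr2 and Tgfb2 stayed below 0 in all 16 settings, whereas Tgfb3, Tgfbr1 and Smad3 crossed it.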

How the data were processed

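Whole-mouse-genome 2-colour arrays (2 per group) were read on 1 slide in 1 scan, so neither could serve as a batch term. The scanner files were made with Agilent Feature Extraction 9.5.3.1, per the file headers, and hold spot and local background intensity, processed intensity and the log10 ratio of Cy5 over Cy3. The deposited value table holds log2 ratios centred on each probe's median: between 87.6% and 88.1% of values lay within 0.001 of the centred scanner ratio. Its column medians were 0.0133 and -0.0172 for vector replicates 1 and 2, and 0.0221 and -0.0149 for miR-23b/27b/24 replicates 1 and 2.

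Mean signals were corrected by normexp (offset 50), with outlying local backgrounds set to the array's median, and normalised by loess within arrays (R 4.3.3, limma 3.58.1). Control spots and outliers were dropped, and repeated spots averaged. Names came from a RefSeq table of GRCm38.p6 (22951 of 41174 probes by accession). The filter asked that both arrays of at least 1 line be well above background in Cy5 (30077 probes), and the brightest probe stood for its gene. The lines were compared by limma's moderated test (residual degrees of freedom 2, prior 2.83), adjusted over all genes by Benjamini-Hochberg. The test was checked on simulated data with the same spread in both lines, so that check does not cover genes whose spread differs between the lines. The number of arrays limits precision. Between 69.9% and 74.8% of probes were well above background in Cy5.

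Named by rule were the 10 genes with every probe, up to 4 called genes with the largest change from each pathway list or else the smallest p, and the 5 genes nearest to the member that changed most. Ltbp1, Itgb8, Smad2, Smurf2, Itch, Snai1, Snai2, Id1, Id2, Id3, Cdc25a and Acta2 were named outside this rule. Genes, lists, the background step and tests were chosen with earlier results of these data known. Alternatives changed the background step, scaling, filter, choice of probe or moderation, added the replicate number as a block, or left out 1 array. A gene of the list raised by TGF-beta is counted but its values are not reported here.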

Additional observations from a re-analysis of the deposited data

How the results depend on the processing

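Of the 10 genes, 7 kept their sign in all 16 alternatives. Smad3 turned positive with every local background as measured (0.0859), median centring (0.0665), Cy5 alone (0.018) and the mean of its probes (0.146), and lay between -0.11 and 0.0933 with 1 array left out. With 1 array left out, Tgfb3 lay between -0.0722 and 0.245 and Tgfbr1 between -0.0399 and 0.495. Over all genes, 1935 passed, 635 with every local background as measured, 1263 with median centring and between 222 and 4592 with 1 array left out (lowest without miR-23b/27b/24 replicate 1, highest without vector replicate 1). Of the 10 genes between 1 and 5 passed with 1 array left out. Of the pathway lists 16 genes passed, 5 with every local background as measured, 10 with median centring and between 1 and 27 with 1 array left out. All 16 pathway genes that passed kept their sign in every alternative run. Where leaving out 1 array leaves a line with a single array, its spread is taken from the other line. The cause of these shifts was not tested.

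The replicate numbers are not known to pair the arrays: the deviations of same-numbered arrays correlated at 0.0464 across 20494 genes. With the replicate number as a block, 1763 genes passed, 3 of the 10 genes and 16 genes of the pathway lists.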
